A study of Mus musculus with 4 samples.

Results

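Olig1, Olig2, Sox10, Pdgfra, Cspg4 and Gpr17, which together mark the path of a neural progenitor to an oligodendrocyte, were examined for binding of the transcription factor Sp9. The 6 genes were taken by name from 2 lists of Sp9 peaks, which state for every peak how many bases it lies up- or downstream of a gene's transcription start site (TSS) on the mouse mm9 build. A gene missing from a list has no peak assigned to it there. In the E16.5 list 2 of the 6 genes were present, among 5463 gene names, and in the E13.5 list 3 of the 6, among 4826. Pdgfra was in both, as were 16.3% of 21900 protein-coding genes.

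The data come from chromatin immunoprecipitation with a rabbit antibody to Sp9, followed by sequencing (ChIP-seq), of basal ganglia dissected from CD1 mouse embryos that were wild type. The E16.5 group is embryonic day 16.5 and the E13.5 group is embryonic day 13.5. Each has 1 ChIP library for Sp9 and 1 input library, made with no antibody. The series text calls the tissue ganglionic eminence. No allele was altered and no agent was given in either group, per the labels, and whether embryos were pooled is not stated. The lists hold 6022 peaks at E16.5 and 5847 at E13.5. They give no height, width, fold or read total, so the depth is unknown, and with 1 library per stage no difference between the stages has a replicate check or a test. The tissue holds many cell types, so fewer cells with a bound site and less binding per cell cannot be told apart. A peak list holds no RNA level, so the tissue label could not be checked against marker expression.

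Oligodendrocytes are the myelin-forming glia of the central nervous system. In the ventral forebrain their precursors arise from the same germinal zones that make GABAergic neurons. Olig1 and Olig2 are adjacent genes for basic helix-loop-helix factors, and Olig2 is needed to specify the lineage. Sox10, an HMG-box factor, acts after them and drives myelin genes. Pdgfra is the receptor for platelet-derived growth factor (PDGF), the main mitogen of oligodendrocyte precursors. Cspg4 encodes the NG2 proteoglycan on the surface of precursors and pericytes, and Gpr17 encodes a receptor of cells that are about to mature. Sp9 is a zinc finger factor of the SP/KLF family, whose members bind GC boxes and CACCC boxes, and is known for its role in striatal neurons and interneurons.

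The peaks around these genes differed between the lists. At E16.5 the 6 genes had 3 assigned peaks, 1 at Sox10 and 2 at Pdgfra. At E13.5 they had 5 assigned peaks, 2 at Olig1, 1 at Olig2 and 2 at Pdgfra. A peak lay within 50 kb of the TSS in 1 of 6 genes at E16.5, where 15.1% of protein-coding genes had one. At E13.5 this was so for 3 of 6 genes, against 10.8% of protein-coding genes. With 6 genes, each gene moves such a share by more than the whole background, so the counts are given as a description. Counting a peak at any assigned distance, 2 of 6 genes had one at E16.5 (23.6% of protein-coding genes) and 3 of 6 at E13.5 (20.7%). Cspg4 and Gpr17 had none in either list, as did 72% of protein-coding genes.

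**Figure D1:**
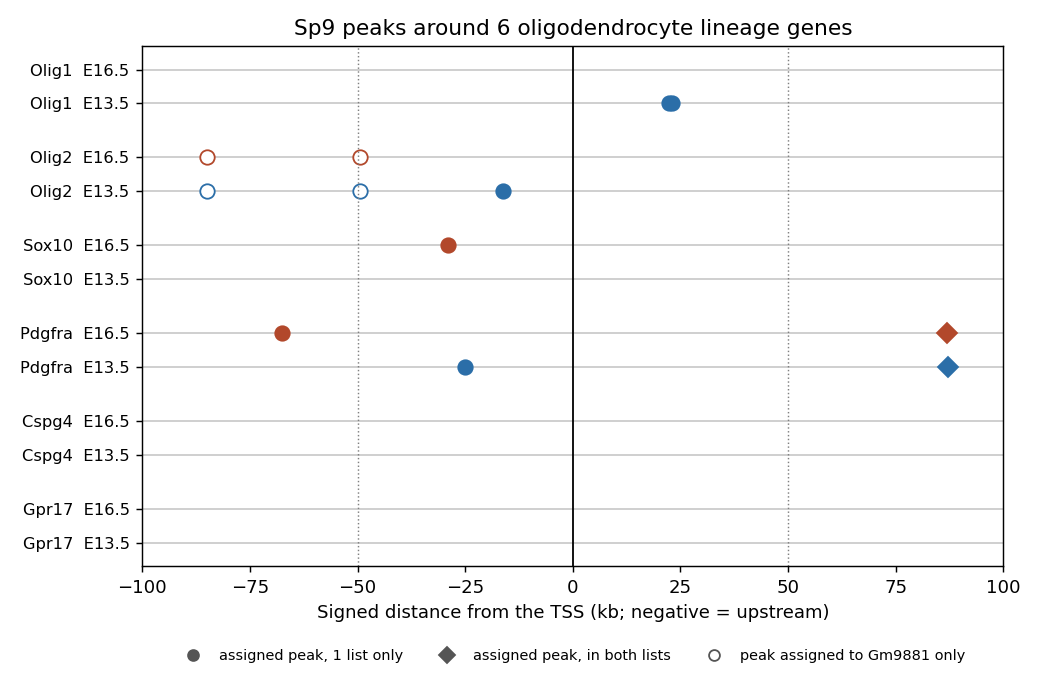
Position of Sp9 peaks along the x axis, as signed distance in kb from the TSS of each gene, with a row for each gene at E16.5 (red) above E13.5 (blue). Filled circles are assigned peaks found in 1 list, diamonds are assigned peaks found in both, open circles are peaks assigned to Gm9881 only and placed here relative to Olig2, and dotted lines stand 50 kb from the TSS. No peak falls close to a TSS, the Olig1 and Olig2 rows have filled marks at E13.5 only, and the only diamonds are the Pdgfra peaks 87 kb downstream.

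Of the transcription factor genes, Olig2 had a single assigned peak, 16302 bp upstream of its TSS, in the E13.5 list. The same peak was also assigned to Gm9881, a non-coding RNA gene, and lay 37847 bp upstream of that TSS. The E16.5 list had no peak assigned to Olig2. The genes with a peak within 50 kb at E13.5 only were 3.02% of all protein-coding genes, and Olig2, Olig1 and Pdgfra are among them.

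A further pair of peaks lay near Olig2 without being assigned to it. Gm9881 had a peak 4653 bp upstream of its TSS at E16.5 and 4679 bp upstream at E13.5, which differ by 26 bp. Both fall in the stretch next to the TSS that the authors' assignment gives to Gm9881. The peak shared by both genes sets the start sites 54149 bp apart. On that scale the pair stood 49496 bp upstream of Olig2 at E16.5 and 49470 bp upstream at E13.5, just inside 50 kb. A second Gm9881 pair stood 84889 bp upstream of Olig2 at E16.5 and 84913 bp upstream at E13.5. The region upstream of Olig2 thus held peaks in both lists, and Olig2 would be a gene with a peak within 50 kb at both stages if these were counted. This placement was made after the values were seen and for Olig2 only. No share over protein-coding genes was computed under it.

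Olig1, the partner of Olig2 on chromosome 16, had 2 peaks at E13.5, 22446 and 23097 bp downstream of its TSS. The 2 peaks were 651 bp apart and carried consecutive numbers in a list that runs along the chromosome. A consecutive peak of the same gene within 1 kb was found for 2.07% of the E13.5 peaks. Both were also assigned to Ifnar2, an interferon receptor gene, whose TSS they preceded by 80568 and 79917 bp, so Olig1 was the nearer gene. In these peaks Olig1 and Ifnar2 overlapped completely, with 2 of 2 peaks shared. The upstream peak of Olig2 and the first downstream peak of Olig1 also had consecutive numbers, so no peak was called between them. In the E16.5 list Olig1 and Ifnar2 were both absent. There the Gm9881 peak was followed in number by a peak 41 bp upstream of the TSS of Ifnar1, so that list called none from the one to the other.

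Sox10 on chromosome 15 showed the opposite order of stages. Its single peak, 28870 bp upstream of the TSS, was in the E16.5 list. Genes with a peak within 50 kb at E16.5 only made up 7.27% of protein-coding genes. The peak was shared with Pick1, which encodes a PDZ-domain adaptor protein and lay 36031 bp away, so that it fell between the 2 start sites, which are 64901 bp apart. Sox10 and Pick1 had no other peak in either list. At E13.5 the numbers passed without a gap from a peak of Mfng to a peak of Rpl3. The table of gene order placed 17 unlisted protein-coding genes between Mfng and Sox10 and 24 between Sox10 and Rpl3.

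Pdgfra on chromosome 5 had 2 peaks in each list. One pair recurred, at 87008 bp downstream of the TSS at E16.5 and 87103 bp downstream at E13.5, which differ by 95 bp. These peaks were also assigned to Kit, the neighbouring gene for a related receptor tyrosine kinase, but lay 335656 and 335561 bp from it. The upstream peaks did not match. At E16.5 the peak was 67571 bp upstream of Pdgfra and at E13.5 it was 24997 bp upstream, a gap of 42574 bp. Both were shared with Gsx2, which encodes a homeodomain factor of lateral eminence progenitors and lies 76690 bp from the Pdgfra TSS. The E16.5 peak was nearer to Gsx2, 9119 bp downstream of its TSS, whereas the E13.5 peak stood 51693 bp downstream of it and was nearer to Pdgfra. The upstream peaks thus had different nearest genes in the 2 lists. Over both lists Pdgfra shared 2 of its 4 peaks with Gsx2 and the other 2 with Kit. The shared peaks were 2 of the 4 assigned to Pdgfra or Gsx2, and 2 of the 8 assigned to Pdgfra or Kit.

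Recurrence was low in number for these genes. A peak counted as recurring when the same gene had a peak within 200 bp in the other list. This held for 1 of 3 peaks at E16.5, where 56.2% of all peaks recurred, and for 1 of 5 at E13.5, where 57.9% did. Of the member peaks, 2 lay upstream and 1 downstream at E16.5, and 2 lay upstream and 3 downstream at E13.5. All 8 entries were shared with another gene, as were 61.5% of all peaks at E16.5 and 69.7% at E13.5. Of the genes a peak was assigned to, the member was the nearest for 2 of 3 peaks at E16.5 and for 5 of 5 at E13.5. The matching share over all peaks was not computed, so these counts say nothing particular about the members.

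For Cspg4 and Gpr17 the absence of a peak can be set against the neighbours. On chromosome 9 Cspg4 lies beside Odf3l1, which had peaks 105628 and 112540 bp downstream of its TSS at E16.5 and 105674 and 112547 bp downstream at E13.5. These were shared with Lingo1, on the side away from Cspg4. The next number in both lists was a peak of Sin3a, a corepressor gene, 526 bp downstream of its TSS at E16.5 and 574 bp at E13.5. Cspg4 and the 4 protein-coding genes between it and Sin3a therefore sat in a stretch with no called peak at either stage. Gpr17 on chromosome 18 lay between a peak of Sft2d3, 952 bp downstream of that TSS, and one of Ercc3 in the E16.5 list, with consecutive numbers. At E13.5 it lay between peaks of Sap130 and Map3k2, again with no number between. The Sft2d3 peak falls in the stretch next to the TSS that the authors' assignment gives to that gene. No peak ties Gpr17 to Sft2d3, so the distance of Gpr17 from the Sft2d3 peak could not be measured on mm9. The lack of an assigned peak thus does not exclude one near Gpr17 at E16.5.

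No peak lay within 1 kb of the TSS of any of the 6 genes in either list. Over all protein-coding genes 9.42% had such a promoter peak at E16.5 and 4.93% at E13.5. Nor did any lie in the stretch reaching 5 kb upstream and 1 kb downstream of a TSS, where each peak is given to the gene whatever its neighbours (10.2% and 5.51% of protein-coding genes). The nearest peaks stood 28870 bp (Sox10) from a TSS at E16.5 and 16302 bp (Olig2) at E13.5. Among genes with any peak the median distance to the nearest one was 15.4 kb at E16.5, and both members in that list were farther away than this. At E13.5 the median was 44.7 kb, and all 3 members in the list were nearer.

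**Figure D2:**
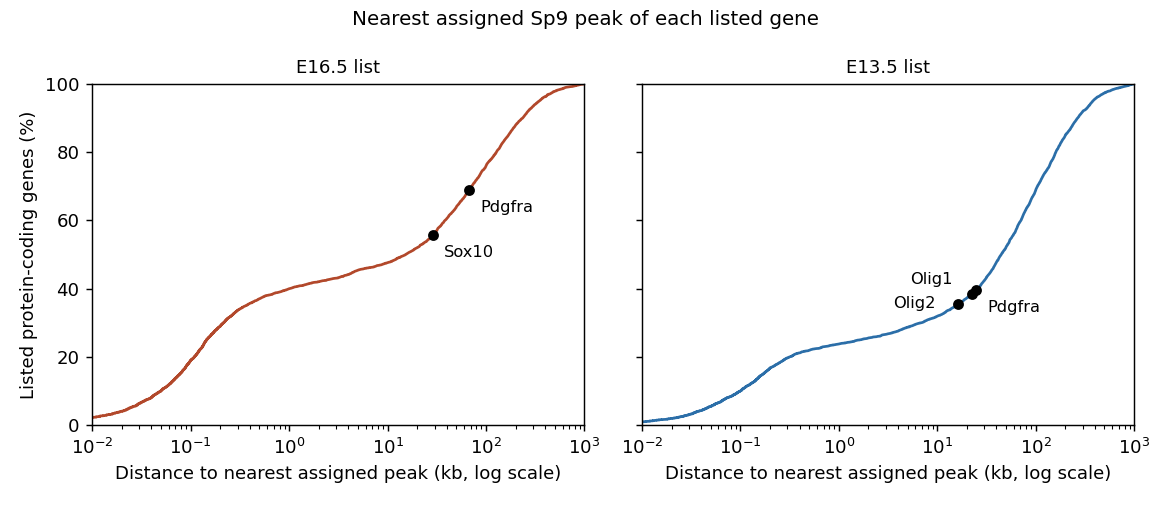
Share of listed protein-coding genes (y axis, %) whose nearest assigned peak lies closer than the distance on the x axis (kb, log scale), at E16.5 on the left and E13.5 on the right, with black points for the members. At E16.5 Sox10 and Pdgfra stand at 55.7% and 68.8%, and at E13.5 Olig2, Olig1 and Pdgfra stand close together at 35.4%, 38.3% and 39.5%.

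The promoters of 3 of the 6 genes were found in a RefSeq table, build GRCm38.p6, as windows from 250 bases before to 50 after the TSS. They are shown because these windows hold GC boxes in 2 genes and a Sp9 peak in none. Capitals mark the GC box, GGGCGG or its reverse complement CCGCCC. The windows are Olig2 at chr16:91225300-91225599, Cspg4 at chr9:56864854-56865153 and Pdgfra at chr5:75152001-75152300, all on the plus strand and written 5′ to 3′.
Olig2: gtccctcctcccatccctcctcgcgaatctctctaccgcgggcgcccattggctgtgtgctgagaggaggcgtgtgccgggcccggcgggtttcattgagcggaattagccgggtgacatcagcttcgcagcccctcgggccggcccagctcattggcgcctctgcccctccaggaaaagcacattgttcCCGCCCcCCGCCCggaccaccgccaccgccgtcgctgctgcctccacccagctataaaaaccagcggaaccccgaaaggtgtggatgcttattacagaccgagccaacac
Cspg4: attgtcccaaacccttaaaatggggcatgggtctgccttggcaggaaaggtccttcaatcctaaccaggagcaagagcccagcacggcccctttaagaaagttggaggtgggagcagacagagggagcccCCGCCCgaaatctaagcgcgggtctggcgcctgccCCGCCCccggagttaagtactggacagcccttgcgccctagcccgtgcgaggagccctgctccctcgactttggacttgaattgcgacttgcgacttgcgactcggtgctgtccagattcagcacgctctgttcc
Pdgfra: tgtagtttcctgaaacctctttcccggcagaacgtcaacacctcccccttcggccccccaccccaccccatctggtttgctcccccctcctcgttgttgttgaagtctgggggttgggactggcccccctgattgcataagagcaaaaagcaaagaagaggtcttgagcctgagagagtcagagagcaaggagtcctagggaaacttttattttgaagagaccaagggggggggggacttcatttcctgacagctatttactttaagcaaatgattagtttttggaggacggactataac
Olig2 had 2 GC boxes, starting 60 and 53 bases before the TSS, and Cspg4 had 2, starting 120 and 85 bases before it. Pdgfra had 0 GC boxes. The motif was present on either strand in 35.7% of the 32851 promoter windows of the table. The CACCC box, CACACCC or GGGTGTG, and the homeodomain core TAATTA, a palindrome, were in none of the 3 windows and in 7.95% and 5.29% of all windows. Such a match is a description of the letters and not a bound site.

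Other genes of the lineage were counted in 3 lists of 41 genes in all, the 6 genes included. A peak lay within 50 kb in 7 of 41 genes at E16.5 and in 11 of 41 at E13.5. At both stages 5 of the 41 genes had one, as did 7.78% of protein-coding genes. Leaving out the 6 genes, 6 of 35 had one at E16.5 (17.1%, exact 95% binomial interval 6.56 to 33.6) and 8 of 35 at E13.5 (22.9%, 10.4 to 40.1), against 15.1% and 10.8% of protein-coding genes. These intervals cover counting error only. A peak at any assigned distance was found for 16 of the 35 at E16.5 and for 15 at E13.5. Among protein-coding genes 23.6% and 20.7% had one. The median distance to the nearest peak was 98.1 kb for these 16 genes and 47.6 kb for the 15. Over all listed protein-coding genes it was 15.4 and 44.7 kb. Of the peaks of the 35 genes, 24 of 45 recurred in each list, beside 56.2% of all peaks at E16.5 and 57.9% at E13.5.

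Among the 12 lineage regulators, 4 had a peak within 50 kb at E16.5 (15.1% of protein-coding genes) and 5 at E13.5 (10.8%). Besides Olig1, Olig2 and Sox10 the regulators with such a peak included Nkx6-2 and Sox5. The peak of Nkx6-2, a homeobox gene, recurred at 37459 bp downstream at E16.5 and 37440 bp at E13.5. Sox5, an SRY-box gene, had a recurring peak 42359 bp upstream at E16.5 and 42440 bp at E13.5, and another 26992 bp upstream at E13.5 only. Olig1, Olig2 and Sox10 had no recurring assigned peak, a contrast with Nkx6-2 and Sox5 that was picked after the values were seen and not tested.

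Of the 12 genes for surface and matrix proteins of precursors, 2 had a peak within 50 kb at E16.5 and 6 at E13.5. The shares over all protein-coding genes were 15.1% and 10.8%. Cspg5 and Tnr, which encode the proteoglycan neuroglycan C and the matrix glycoprotein tenascin-R, had one at both stages. Cspg5 had its recurring peak 34671 bp upstream at E16.5 and 34654 bp at E13.5, with 2 more at E16.5, 1763 and 37524 bp downstream. The Tnr peak was 31319 bp downstream at E16.5 and 31273 bp at E13.5. Pdgfra, Cacng4, Ptprz1 and Vcan had one at E13.5 only, as did 3.02% of protein-coding genes. Cacng4, a subunit gene of AMPA receptor complexes, had it 31207 bp downstream, Ptprz1, a receptor phosphatase gene, 47606 bp downstream, and Vcan, the gene for the proteoglycan versican, 1978 bp downstream. Each of these genes also had a recurring peak beyond 50 kb. At E16.5 and E13.5 it lay 73089 and 73143 bp upstream of Cacng4, and 239975 and 240020 bp upstream of Ptprz1. For Vcan it lay 243849 and 243826 bp upstream, and for Pdgfra 87008 and 87103 bp downstream. Of the 17 genes for differentiation and myelin, 1 had a peak within 50 kb at E16.5 and 0 at E13.5. The gene was Ugt8a, which encodes an enzyme that makes the myelin lipid galactosylceramide, with a peak 150 bp upstream of its TSS.

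The ligands and receptors of the PDGF pathway had a peak within 50 kb in 1 of 6 genes at E16.5 and in 2 of 6 at E13.5. Among all protein-coding genes 15.1% and 10.8% had one. Pdgfa, the ligand of Pdgfra that drives precursor growth, had a peak 42 bp upstream of its TSS at E16.5 only. Pdgfd, a ligand gene for the other receptor Pdgfrb, had one 27543 bp downstream at E13.5 only. A farther Pdgfd peak recurred, 415621 bp upstream at E16.5 and 415582 bp upstream at E13.5. Pdgfra had its own at 24997 bp at E13.5.

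Lists for other cell types of the tissue gave a frame for these counts. Genes of GABAergic neurons, chosen with their peaks already known, had a peak within 50 kb in 9 of 10 cases at E16.5 and in 10 of 10 at E13.5. Some neighbouring genes of this list share peaks, so its cases are not all separate, and Sp9 itself is in it. Astrocyte and radial glia genes had one in 2 of 12 and 1 of 12 cases, and genes of endothelium, microglia and mural cells in 1 of 12 and 2 of 12. Over all protein-coding genes the shares were 15.1% at E16.5 and 10.8% at E13.5.

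**Figure D3:**
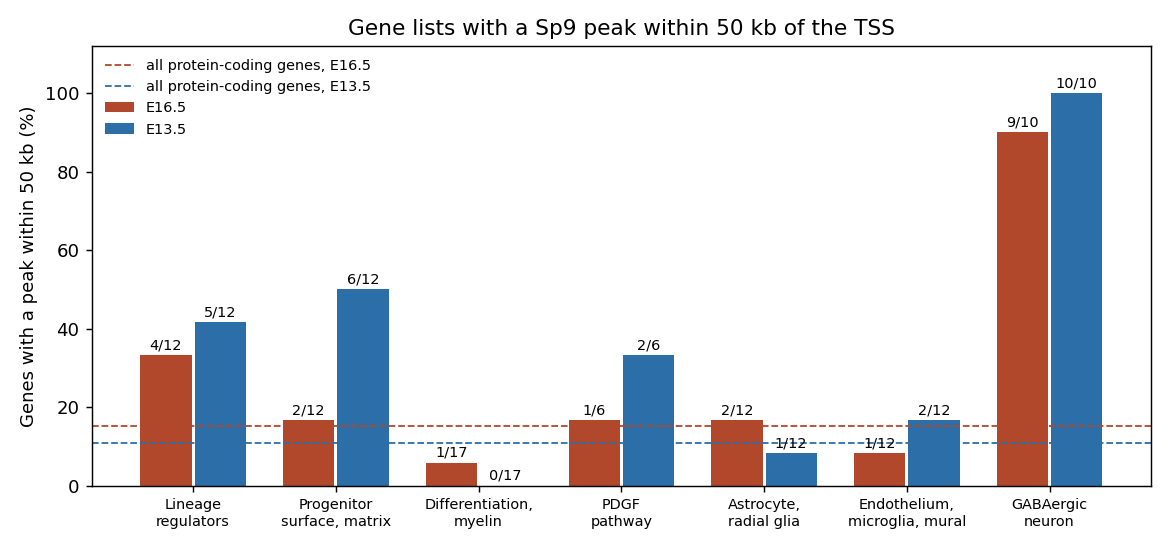
Share of genes in each list with a Sp9 peak within 50 kb of the TSS (y axis, %), at E16.5 (red, left bar) and E13.5 (blue, right bar), with the number of genes over each bar and dashed lines for all protein-coding genes. The lineage regulator bars (4 of 12 and 5 of 12) and the E13.5 precursor surface bar (6 of 12) stand above the dashed lines, the differentiation bars (1 of 17 and 0 of 17) below them, and the GABAergic neuron bars (9 of 10 and 10 of 10) far above. The bars rest on few genes and carry no test. The GABAergic neuron genes were chosen with their peaks already known, and some of them share peaks.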

How the data were processed

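The mm9 build and CASAVA 1.8.2, MACS2 2.1.0, BWA 0.6.2 and bcl2fastq 1.8.4 are named in the submitters' processing notes, with neither role nor setting nor peak threshold. The authors deposited no standard unit but other text, per the file headers: numbered peaks per gene with their signed distance from the TSS. Each peak was given to genes by regulatory domains, per the file headers, reaching 5000 bp upstream and 1000 bp downstream, extendable by 1000000 bp, plus curated ones. Depth is unknown, and absence from a list does not exclude weaker binding. The 2 lists come from the Sp9 ChIP libraries, and the inputs' own signal was not analysed here.

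Lettered entries of a number were counted as 1 peak. Names were matched by symbol or unique synonym to a RefSeq table (GRCm38.p6, for names, gene type and order only), with 5330 of 5463 matched at E16.5 and 4698 of 4826 at E13.5. Its 21900 protein-coding genes were the background. Numbers followed position in 934 of 937 genes with 3 or more peaks at E16.5 and 1081 of 1084 at E13.5, so consecutive numbers were read as neighbouring peaks. The spacing of start sites was summed from a shared peak between them. For Olig2 and Gm9881 this uses the plus strand of Olig2 (RefSeq) and the minus strand of Gm9881 (order of its peaks).

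With 1 library per stage no test was run. Matching and counting were checked on simulated data. Named were the 6 genes, genes sharing their peaks (up to 2 each by overlap) and panel genes with a peak within 50 kb. Pdgfa, Pdgfd and farther neighbours were named after their values were seen. For part of the panel, values by gene are not reported here. The genes and lists were chosen with earlier results of these data known. Python 3.11.15 was used with numpy 2.4.6, matplotlib 3.10.9 and scipy 1.17.1.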

Additional observations from a re-analysis of the deposited data

How the results depend on the processing

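Counts rest on the window. Within 10 kb, 0 of 6 genes had a peak at E16.5 and 0 at E13.5, and from 5 kb upstream to 1 kb downstream 0 and 0. Within 100 kb, 2 of 6 had one at E16.5, and 3 at E13.5 as within 50 kb. With peaks placed from the spacing of start sites, an alternative chosen after seeing the data, Olig2 was added at E16.5, giving 2 of 6, and the E13.5 count remained 3. Peaks were placed in this way for Olig2 only, and no share over protein-coding genes was computed under this alternative. In the 41-gene panel 3 genes at E16.5 and 1 at E13.5 had a peak within 10 kb, and 2 and 0 in the narrow window. The share of protein-coding genes with a peak was 11.2% at E16.5 and 6.61% at E13.5 within 10 kb, 17.9% and 14.3% within 100 kb, 10.2% and 5.51% in the narrow window, and 16.1% and 11.5% within 50 kb without predicted genes. Giving each peak to its nearest TSS left 2 of 3 member peaks at E16.5 and 5 of 5 at E13.5, with no share over all peaks computed. Matching within 100, 500 or 1000 bp gave 1 recurring member peak, as within 200 bp. Neither peak strength nor replicate spread could be taken into account. No paired analysis was possible because each stage has 1 ChIP library and no result comes from a test.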

Other observations

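Beyond Pdgfra, the neighbouring receptor genes Kit and Kdr, which encode the stem cell factor receptor and a receptor for vascular endothelial growth factor, shared the peaks that follow along chromosome 5. A Kit peak recurred, 181320 bp downstream at E16.5 and 181279 bp downstream at E13.5, and was also assigned to Kdr, at 222183 bp and 222224 bp downstream. A peak nearer to Kit was 40467 bp downstream at E16.5 and 16142 bp downstream at E13.5, so this pair did not match. On the other side of Gsx2, Chic2 had a recurring peak 31890 bp downstream at E16.5 and 31799 bp downstream at E13.5.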
